A study of Mus musculus with 9 samples.

Results

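The genes described here are 45 interferon-stimulated and antigen presentation genes, out of 55416 Ensembl genes in the deposited count table. They were listed by symbol and chosen by their values in these libraries, that is by their levels, fold changes and spread between replicate libraries in all 3 groups, so those values are a description. They fall into 8 roles: interferon regulatory and STAT factors, nucleic acid sensors with the kinase PKR, the IFIT family, the OAS family, MX, viperin and other antiviral effectors, ISG15 conjugation, other interferon-induced genes, and class I antigen presentation. Expression was measured by RNA-Seq of ribosome-depleted total RNA in 9 libraries of cultured AdvSca1-SM cells. These are smooth muscle–derived progenitors of the arterial adventitia, sorted as YFP+ Sca1+ cells from the aortas and carotid arteries of pooled 8-week-old mice in which the SM22α promoter drives Cre and so marks cells with YFP; such a sort can also hold rare Sca1+ cells of the media. Each of the 3 groups had 3 libraries. Stem cells were kept in stem medium, which holds 10% serum, 1 ng/mL basic fibroblast growth factor and 5 ng/mL epidermal growth factor, and carry the label vehicle. TGF-β cells were growth arrested for 24 h, moved to DMEM with 0.1% serum and given 5 ng/mL TGF-β1 for 72 h. Both cells were treated like the TGF-β cells with 50 μM PFI-3, a ligand of the Brg1 bromodomain, in addition. All cells received 0.1% DMSO. Medium and TGF-β1 changed together between Stem and TGF-β and cannot be told apart, whereas TGF-β and Both differed in PFI-3.

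Type I interferons bind the receptor of IFNAR1 and IFNAR2, whose kinases JAK1 and TYK2 phosphorylate STAT proteins, STAT2 among them. With IRF9 these form a complex that binds the interferon-stimulated response element (ISRE) in the promoters of its targets. Interferon-γ acts through JAK1 and JAK2, and its targets carry the gamma-activated site (GAS). The induced genes encode sensors of viral RNA and DNA, proteins that block viral translation and replication, the ubiquitin-like modifier ISG15 and its enzymes, and the machinery that loads peptides on class I molecules. Many cells, fibroblasts and smooth muscle cells included, keep a low level of these genes without infection.

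The ISRE was searched in the promoters because the members differed between libraries together. RefSeq windows of GRCm38.p6, from 250 bases before to 50 bases after a start site, were listed for 35 of the 45 members. The core searched was GAAA, any 2 bases, then GAAA, on both strands. It was found in 14 of the 35 members (40%) and in 3.99% of the 27025 genes with a window. The members were listed as interferon-stimulated genes, so their higher share follows from the list and is not a result about the libraries. A GAS motif, TTCNNNGAA, which reads the same on both strands, was found in 7 of the 35 (20%) and in 9.55% of all genes. In 1 member a GAS match overlapped an ISRE core. The sequences below run 5′ to 3′ on the strand of the gene, with every core in capitals, and were taken for the 6 members with a core whose replicate libraries were farthest apart among those described with all their values. A core on the opposite strand reads as TTTC, 2 bases and TTTC. All lie upstream of the start site, except that the stretch of Ddx60 runs past it.
Ifit1: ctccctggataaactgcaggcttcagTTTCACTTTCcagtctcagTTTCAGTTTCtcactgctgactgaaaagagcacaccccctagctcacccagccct
Isg15: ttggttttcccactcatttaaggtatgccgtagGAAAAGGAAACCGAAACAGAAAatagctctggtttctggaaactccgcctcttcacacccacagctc
Ddx60: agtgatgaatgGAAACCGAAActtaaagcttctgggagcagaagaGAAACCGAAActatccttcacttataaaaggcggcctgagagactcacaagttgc
Ifit3: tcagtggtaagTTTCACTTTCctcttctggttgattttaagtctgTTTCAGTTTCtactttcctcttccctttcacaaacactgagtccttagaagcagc
Bst2: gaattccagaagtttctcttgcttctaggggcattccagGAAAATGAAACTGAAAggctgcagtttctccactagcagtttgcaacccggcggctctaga
Gbp2: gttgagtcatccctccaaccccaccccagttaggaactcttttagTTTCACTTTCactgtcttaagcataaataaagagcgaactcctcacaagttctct
They lie at chr19:34640759-34640858 (plus strand), chr4:156200830-156200929 (minus), chr8:61928023-61928122 (plus), chr19:34583362-34583461 (plus), chr8:71537542-71537641 (minus) and chr3:142620559-142620658 (plus), in this order. The core nearest the start site of Ddx60 ended 10 bases before it and that of Bst2 115 bases before it. Isg15 had 3 overlapping cores, Bst2 had 2 overlapping cores, and Ifit1, Ddx60 and Ifit3 had 2 separate ones. A match is a description of these letters and was not tied to binding in these cells.

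Libraries held between 35686291 and 47741128 counts, with 19.5% to 22.8% of them on the top 10 genes of a library. Mitochondrial genes took 12.1% to 15.4%. The extraction text of the labels names liver, but the summed level of 7 hepatocyte markers was at most 2.63 normalized counts in any library. A normalized count, the unit of all levels here, is a raw count brought to the size of the average library after TMM scaling. The study calls the libraries of a group independent replicates; the labels do not say whether they came from separate cultures, so the spread between them may be technical. No pair of libraries of a group agreed within sampling noise, and Stem replicate 2 stood apart most. The chi-square between 2 libraries over its degrees of freedom was 123 for Stem replicates 1 and 2 and 101 for Stem replicates 2 and 3. It was 7.24 for Stem replicates 1 and 3 and 5.69 to 15.6 for the pairs of the other groups. The top 10 genes of Stem replicate 2 also took the largest share of counts, 22.8%.

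**Figure D1:**
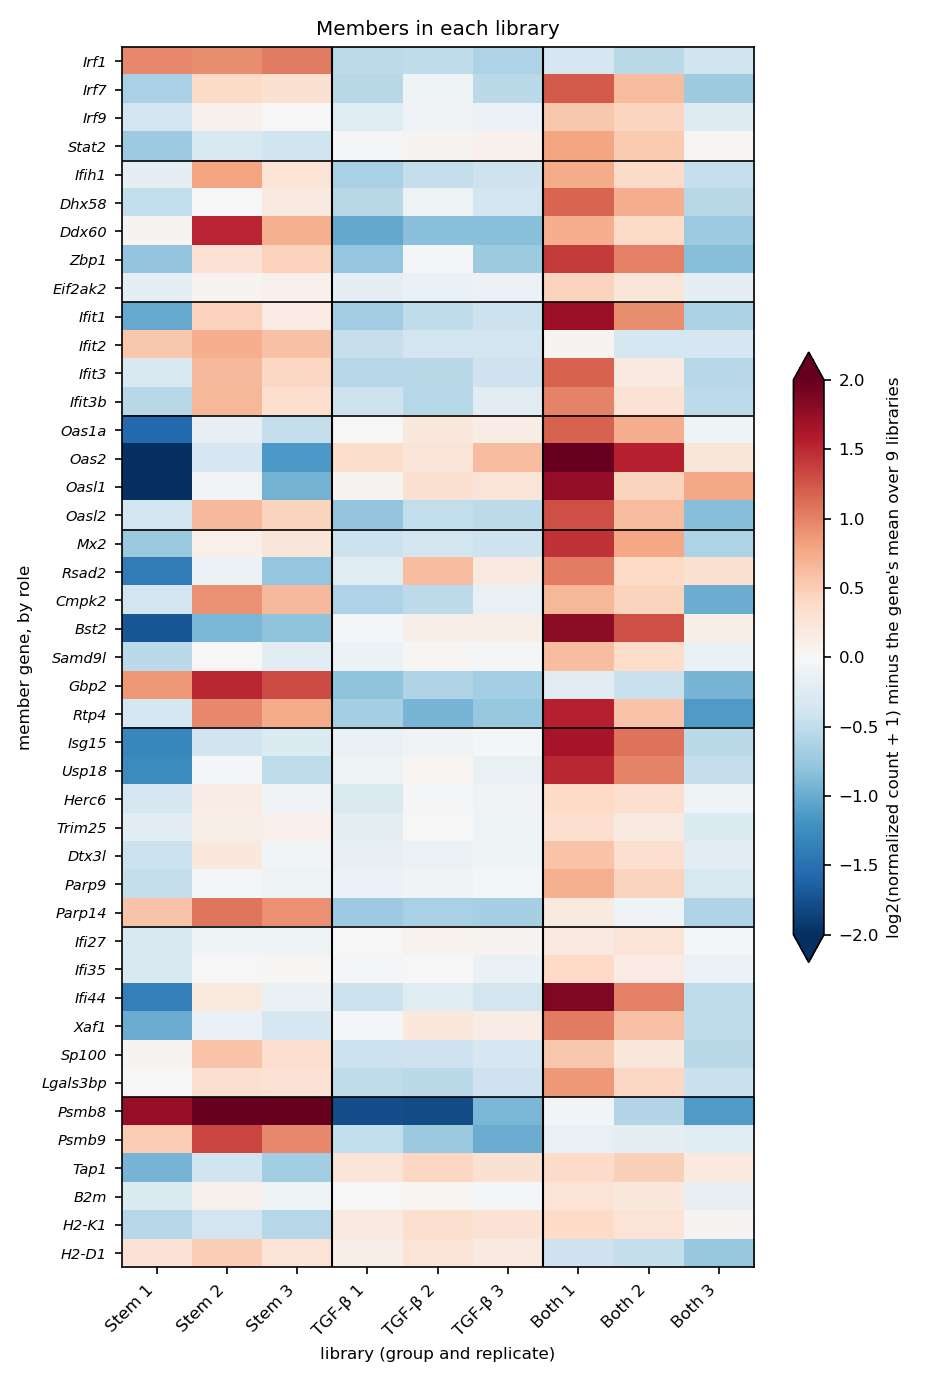
The 43 tested members (rows, by role) in the 9 libraries (columns): color gives log2(normalized count + 1) minus the mean of the gene over all libraries, cut at 2 in either direction. Most members are high in Both replicate 1, less so in Both replicate 2, and low in Both replicate 3 and Stem replicate 1, whereas the TGF-β libraries look alike.

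The members differed between replicate libraries far more than other genes did, and they differed together. They were chosen partly by this spread, so the contrasts with all tested genes here and below are a description. Both replicate 1 was the highest library of its group in 41 of the 43 members that passed the filter on low counts, and the order replicate 1, 2, 3 from high to low was found in 38 of 43 (88.4%), against 14.0% of all 14879 tested genes. Stem replicate 1 was the lowest Stem library in 41 of 43 (95.3%), against 37.7% of all tested genes. Stem replicate 2, which stood apart from the other Stem libraries, was the highest in 35 of 43 (81.4%), against 39.5% of all tested genes. The TGF-β libraries were close to each other. In bulk samples, fewer expressing cells and less RNA per cell cannot be told apart. Mx1 and Oas3 did not pass the filter, with at most 3 and 12 raw counts in a library. Normalized counts summed over the 45 members were 41045, 56527 and 51532 in Stem, 45524, 48713 and 48073 under TGF-β and 80684, 65633 and 43286 in Both. The Both libraries held both the highest and nearly the lowest sum, while the TGF-β libraries differed little.

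The spread was measured as the SD of log2(normalized count + 1) within groups, pooled over the 3 groups. Its median was 0.46 over the tested members and 0.10 over all tested genes. By group the members had a median SD of 0.35 for Stem, 0.090 for TGF-β and 0.56 for Both, and over all tested genes it was 0.11, 0.072 and 0.079. The dispersion that edgeR fitted to each gene was a median of 14.2 times the trend at the same level for the members, and above the trend in 41 of 43. Irf1 and Psmb9 were the exceptions, with 0.535 and 0.991 times the trend. The mean deviation of the members spanned 0.84 on the log2 scale between the Stem libraries, 0.14 between the TGF-β libraries and 1.18 between the Both libraries. Across the 9 libraries, the deviation of a member from its group means correlated with the mean deviation of the other members at a median r of 0.97, against -0.02 over all tested genes. These correlations share the libraries and their scaling, and they are a description. Both replicates 1, 2 and 3 held 47045673, 42683050 and 47741128 counts. Mitochondrial shares were 14.5%, 14.3% and 14.8% in these libraries. The part of depth or RNA quality in the spread was not tested.

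**Figure D2:**
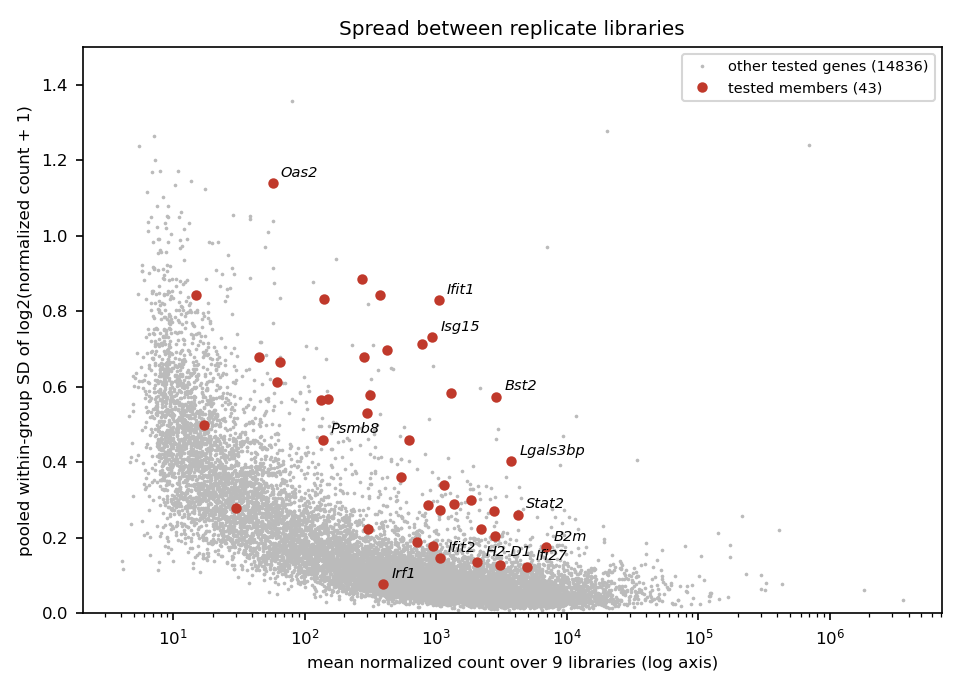
Each point is a tested gene: the x axis (log) is its mean normalized count over 9 libraries and the y axis the pooled within-group SD of log2(normalized count + 1). The members (red) lie mostly above other genes of the same level (grey), with Oas2 at 1.14, whereas Irf1 at 0.077 lies within the cloud.

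Against the TGF-β libraries, the 3 Both libraries gave different answers. The median member was 0.93 above the TGF-β mean on the log2 scale in Both replicate 1, 0.60 above it in replicate 2 and 0.12 below it in replicate 3. Both replicate 1 lay above every TGF-β library in 41 of 43 members and replicate 2 in 39. Replicate 3 lay above them in 6 and below them in 27 (62.8%). Over all tested genes the 3 libraries lay above every TGF-β library in 32.9%, 29.9% and 33.6%, and below every one in 34.5%, 32.2% and 34.4%. The 6 members in which Both replicate 3 also exceeded TGF-β were Irf1, Ddx60, Ifit2, Oasl1, Parp14 and Psmb9.

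**Figure D3:**
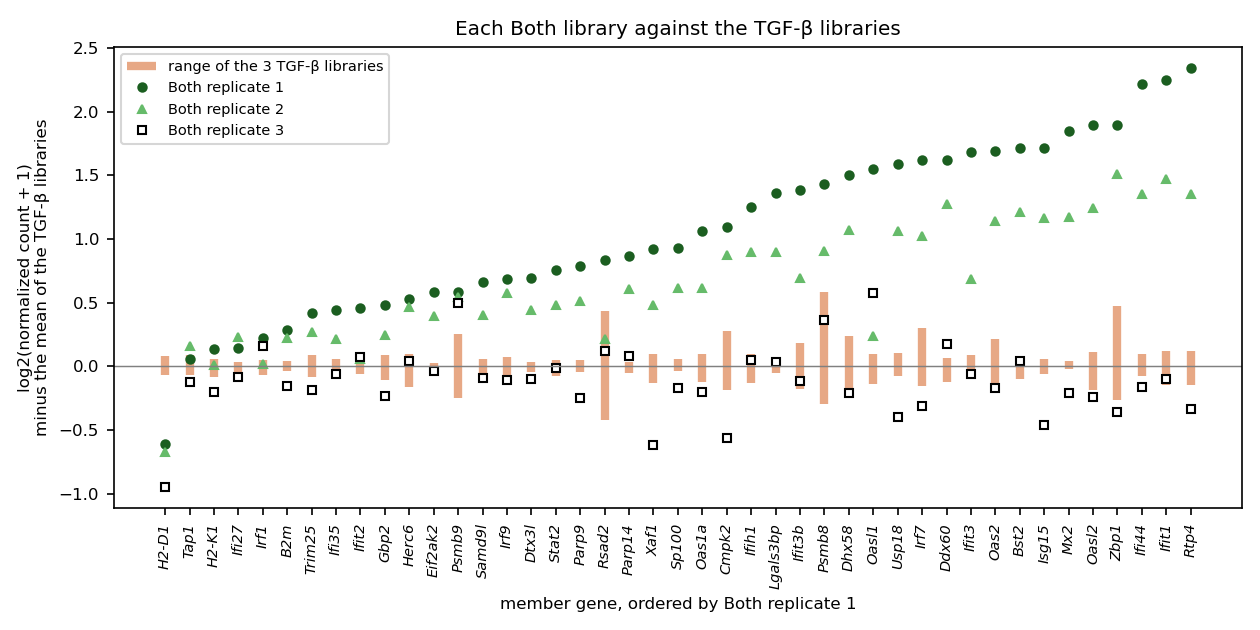
For each tested member (x axis) the 3 Both libraries are shown as log2(normalized count + 1) minus the mean of the TGF-β libraries (y axis), with the range of the TGF-β libraries as a bar. Both replicates 1 and 2 lie above the bar for most members, replicate 3 lies within or below it for all but 6, and all 3 lie below it for H2-D1.

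PFI-3 added to TGF-β1 was compared with TGF-β1 alone. The fitted log2 fold change was positive in 41 of 43 members, with a median of 0.56 against -0.002 over all tested genes, but 1 member passed the threshold. The threshold was an adjusted p of 0.05 by edgeR's quasi-likelihood test over all tested genes with a log2 fold change beyond 1 in either direction. It was passed by Bst2 alone (higher), and by 0.632% of all tested genes (0.161% higher and 0.470% lower). Groups did not overlap in 6 members (14.0%), against 32.7% of all tested genes: Ddx60, Ifit2, Oasl1, Parp14 and Psmb9 were higher and H2-D1 lower in every Both library. At an adjusted p of 0.05 with no minimum fold change, 3 members passed (Bst2 and Lgals3bp higher, H2-D1 lower), against 8.92% of all tested genes (3.54% higher and 5.38% lower). At the full threshold the count depended on which libraries were kept. It was 3 without Stem replicate 1 and 4 without Stem replicate 2, against 0.729% and 0.831% of all tested genes. Without Both replicate 3, 15 members passed, all higher, of the 44 genes called higher (0.290% of 15191 tested; 0.665% in either direction). They were Bst2, Irf7, Ifih1, Dhx58, Zbp1, Ifit1, Ifit3, Oas2, Oasl2, Mx2, Rtp4, Isg15, Usp18, Ifi44 and Lgals3bp. Without Both replicate 1 or 2, or without any 1 of the TGF-β libraries or Stem replicate 3, edgeR called 0 members, with 4 to 24 at an unadjusted p under 0.05. DESeq2 called 1 member, Ddx60 in place of Bst2.

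Stem was compared with TGF-β, where medium and cytokine changed together. Of the 43 tested members, 10 passed the threshold (23.3%), near the 25.1% of all tested genes. The 2 higher in TGF-β were Bst2 and Oas2, and the 8 lower were Irf1, Ddx60, Ifit2, Gbp2, Rtp4, Parp14, Psmb8 and Psmb9. The shares over all tested genes were 10.6% higher and 14.5% lower. The median log2 fold change was -0.13 and its range ran from -3.56 for Psmb8 to 1.66 for Oas2. The members thus split, with 16 positive and 27 negative. Groups did not overlap in 24 members (55.8%), against 76.8% of all tested genes. With no minimum fold change, 18 members passed, 7 higher and 11 lower, against 75.0% of all tested genes called in either direction and 37.3% called higher.

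Stem and Both share libraries with the other comparisons, so their values are given beside them. Here 13 members passed the threshold (30.2%), against 22.8% of all tested genes. The 9 higher in Both were Bst2, Ifi44, Isg15, Oas1a, Oas2, Oasl1, Rsad2, Tap1 and Usp18, against 9.55% of all tested genes higher. The 4 lower were Gbp2, Irf1, Psmb8 and Psmb9, against 13.2%. Of the 9, Ifi44, Isg15 and Usp18 overlapped between groups, in each case through Both replicate 3. Groups did not overlap in 16 members (37.2%), against 74.7% of all tested genes. With no minimum fold change, 22 members passed, 15 higher and 7 lower, against 73.3% of all tested genes (36.6% higher and 36.6% lower). Without Both replicate 3 the count at the full threshold was 19, against 23.8% of all tested genes. In the following, log2 fold changes are given ± SE from the fit of all 9 libraries, as descriptions without a p, since the list was drawn up with results of these libraries known.

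**Figure D4:**
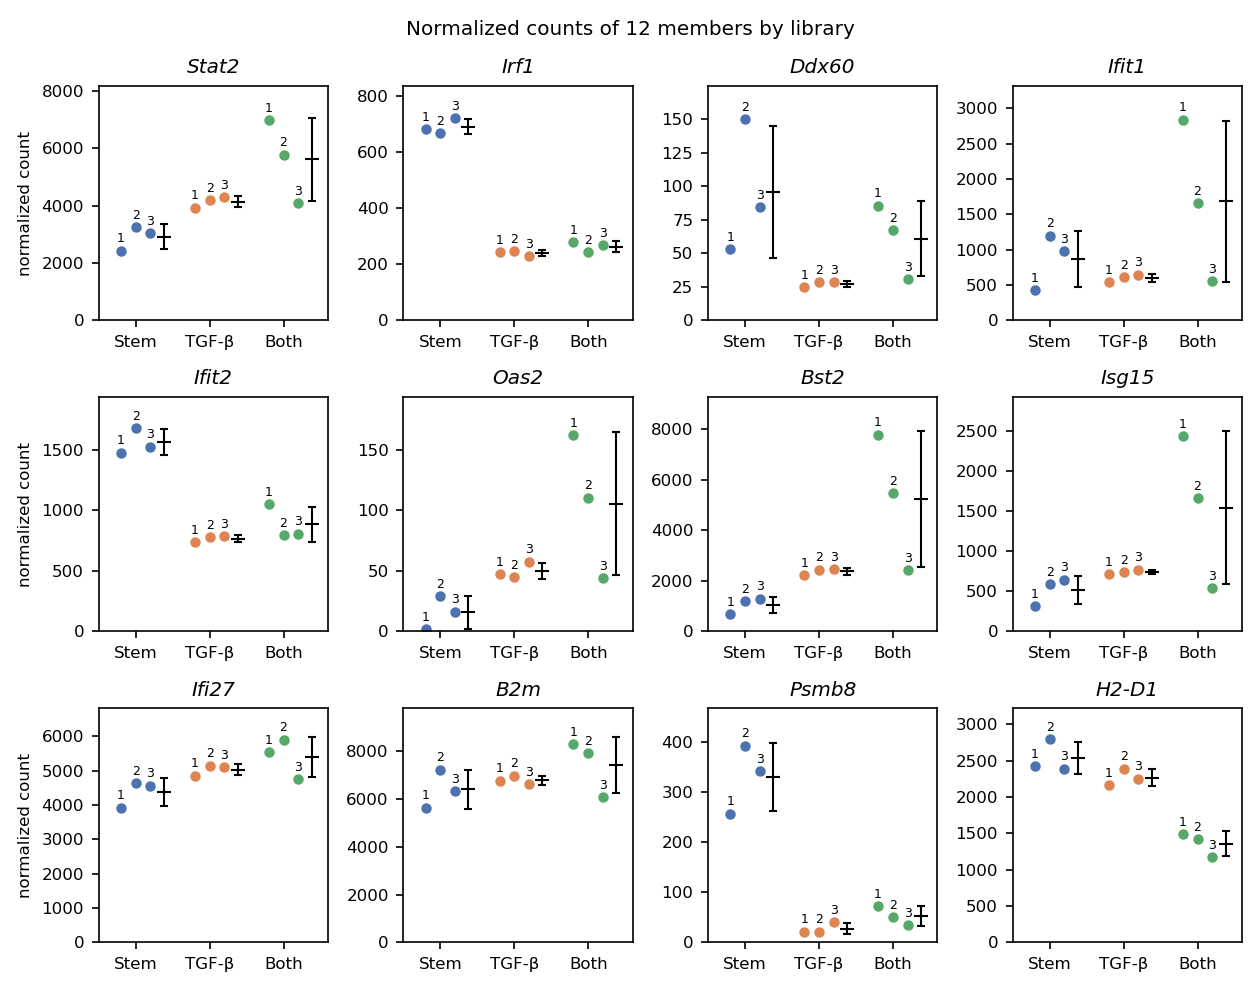
Normalized counts (y axis, from 0) of 12 members in each library, by group (x axis). Points are libraries with their replicate number, and the bar beside each group is the mean ± SD (n = 3). Ifit1, Bst2 and Isg15 fan out in Both, Irf1, Ifit2 and Psmb8 separate Stem from the other groups, and H2-D1 is lower in Both in all 3 libraries.

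Of the regulators, Stat2, the STAT found only in the type I and type III complex, had the highest counts. In normalized counts, Stat2 stood at 2425, 3258 and 3048 in Stem, 3927, 4192 and 4283 under TGF-β and 6974, 5774 and 4095 in Both. Every TGF-β library exceeded every Stem library, Both replicates 1 and 2 were higher still, and Both replicate 3 lay within the TGF-β range. The log2 fold change was 0.51 ± 0.16 from Stem to TGF-β and 0.44 ± 0.15 from TGF-β to Both. Irf7, which amplifies type I interferon production, stood at 163, 335 and 318 in Stem, 175, 240.4 and 176 under TGF-β and 601, 398 and 156 in Both. Its groups overlapped in every comparison, and Both replicate 1 was the highest and replicate 3 the lowest of all 9 libraries. Its log2 fold change from TGF-β to Both was 0.96 ± 0.39. Irf1, induced by interferon-γ through GAS sites, behaved otherwise, at 684, 669 and 723 in Stem, 244, 247 and 228 under TGF-β and 280.0, 243 and 268 in Both. Stem libraries were all higher than the others, with a log2 fold change of -1.53 ± 0.074 from Stem to TGF-β and of 0.14 ± 0.078 from TGF-β to Both. Irf9, the DNA-binding part of the complex, followed Stat2 in Both with 1945, 1798 and 1123.

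Within their groups, the sensors were all highest in Both replicate 1 and lowest in Stem replicate 1. Eif2ak2, which encodes PKR, the kinase that stops translation on double-stranded RNA, stood at 2462, 2924 and 2984 in Stem, 2472, 2565 and 2583 under TGF-β and 3813, 3335 and 2468 in Both. Both replicate 3 lay just below the TGF-β libraries, and the log2 fold change from TGF-β to Both was 0.34 ± 0.12. Ddx60, a helicase linked to RIG-I signaling, stood at 53.4, 149.9 and 84.4 in Stem, 24.8, 28.4 and 28.3 under TGF-β and 85.5, 67.1 and 30.7 in Both. All TGF-β libraries were below all Stem libraries (-1.81 ± 0.42) and below all Both libraries (1.16 ± 0.44), though Both replicate 3 exceeded them by little. Zbp1, a sensor of Z-form nucleic acids that can trigger necroptosis, stood at 69.1, 147 and 166 in Stem, 70.1, 118 and 73.2 under TGF-β and 318, 243 and 65.8 in Both. The groups overlapped, and replicates 1 and 2 of Both exceeded every other library. Ifih1 (MDA5) and Dhx58 (LGP2), sensors of viral RNA, had log2 fold changes from TGF-β to Both of 0.81 ± 0.28 and 0.94 ± 0.34.

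IFIT proteins bind viral RNA ends and hold back translation. Ifit1 stood at 429, 1199 and 977 in Stem, 537, 611 and 647 under TGF-β and 2839.7, 1655 and 556 in Both, with a pooled SD of 0.83. Both replicates 1 and 2 exceeded every other library and replicate 3 lay within the TGF-β range, with a log2 fold change from TGF-β to Both of 1.49 ± 0.47. Ifit3 stood at 963, 1869 and 1583 in Stem, 804, 812 and 888 under TGF-β and 2687, 1341 and 800.5 in Both. Its Both values bracketed those of Stem, with a log2 fold change from Stem to Both of 0.13 ± 0.34 that was -0.46 without Both replicate 1 and -0.094 without Stem replicate 1. Ifit2 stood at 1476, 1681 and 1524 in Stem, 735, 778 and 785 under TGF-β and 1053, 797 and 807 in Both. It separated Stem from TGF-β (-1.03 ± 0.10) without overlap. Both replicate 1 was again the highest and Stem replicate 1 the lowest of its group, but Both replicate 3 was slightly above replicate 2. Ifit3b ran from 219, 195 and 250.9 in TGF-β to 577, 357 and 203 in Both. Ifit3 and Ifit3b share 31.7% and 27.4% of their 100-base stretches with each other, so reads may have been divided between them in a way the counts do not show.

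OAS enzymes make the second messenger that activates RNase L, and OAS-like proteins act beside RIG-I and cGAS. Oas2 had the widest spread of all members, a pooled SD of 1.14, at 2.09, 29.3 and 16.2 in Stem, 47.5, 44.6 and 57.6 under TGF-β and 162, 111 and 43.9 in Both. The Stem libraries were lowest, with 2 raw counts in replicate 1, which is under the floor of 3 counts, and the log2 fold change from Stem to TGF-β was 1.66 ± 0.62. From TGF-β to Both it was 1.07 ± 0.45, with Both replicate 3 below every TGF-β library. Oasl2 went the other way between Stem and TGF-β, at 533, 1094 and 949.9 in Stem, 401, 494 and 482 under TGF-β and 1699, 1083 and 386 in Both (-0.90 ± 0.42), and replicate 3 of Both was again its lowest library. Oas1a, which shares 40.9% of its 100-base stretches with Oas1g and is uncertain for that reason, stood at 39.8, 106 and 85.5 in Stem and 271, 198 and 112 in Both. Oasl1 was low, with 40.5, 15.8 and 20.2 in Both.

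Among the antiviral effectors, Bst2 (tetherin, which holds budding virions at the cell surface) had the highest counts. Bst2 stood at 689, 1187 and 1292 in Stem, 2214, 2450.2 and 2453 under TGF-β and 7793, 5480.1 and 2434 in Both. Stem was lowest and TGF-β intermediate without overlap (1.17 ± 0.34), and Both replicates 1 and 2 were well above TGF-β while replicate 3 lay inside the TGF-β range (1.14 ± 0.32). Without Both replicate 1 the latter value was 0.74 and without replicate 3 it was 1.48. Gbp2, a guanylate-binding GTPase induced by interferon-γ, stood at 1279, 1983 and 1735 in Stem, 400.3, 458 and 438 under TGF-β and 601, 513 and 367 in Both. Every Stem library was higher than every other library, with a log2 fold change of -1.94 ± 0.17 to TGF-β. Rtp4, a chaperone of membrane receptors with antiviral activity, stood at 174, 434 and 371 in Stem, 139, 116 and 129.9 under TGF-β and 653, 329 and 101 in Both. Its Both replicates 1 and 3 were the highest and the lowest of all 9 libraries, and the log2 fold change from TGF-β to Both was 1.49 ± 0.53. Rtp4 shares 11.2% of its 100-base stretches with Gm45338. Mx2, Rsad2 (viperin), Cmpk2 and Samd9l were each highest within Both in replicate 1, with log2 fold changes from TGF-β to Both between 0.35 and 1.18.

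In the ISG15 system, Isg15, the ubiquitin-like modifier itself, stood at 316, 589 and 647 in Stem, 711, 743 and 770.3 under TGF-β and 2440.0, 1660.2 and 537 in Both. TGF-β exceeded Stem narrowly in every library, Both replicates 1 and 2 were well above TGF-β, and replicate 3 was below it. The log2 fold change from TGF-β to Both was 1.06 ± 0.40. Usp18, the protease that removes ISG15 and dampens IFNAR2 signaling, had the same order in Both, with 1043, 723 and 262. Trim25, a ligase that activates RIG-I, stood at 1869.7, 2415 and 2358 in Stem, 1945, 2196 and 2065 under TGF-β and 2754, 2492 and 1811 in Both. It varied less, with a log2 fold change from TGF-β to Both of 0.18 ± 0.13, but kept the order of libraries. Parp14, an ADP-ribosyltransferase, stood at 1435, 2024 and 1828 in Stem, 582, 617 and 608 under TGF-β and 1098, 916 and 638 in Both. It was lower in TGF-β than in Stem without overlap (-1.55 ± 0.17), and all Both libraries exceeded TGF-β (0.55 ± 0.17). Dtx3l and Parp9, which act as a pair, and Herc6, the ligase for ISG15 in mice, had log2 fold changes from TGF-β to Both of 0.38, 0.41 and 0.35. Herc6 shares 20.9% of such stretches with the gene model Gm45193 and is uncertain for that reason.

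Of the other interferon-induced genes, Ifi27 was the most counted and one of the steadiest, at 3921, 4642 and 4564 in Stem, 4853, 5144 and 5093 under TGF-β and 5539.9, 5901 and 4748 in Both. Its Both replicate 2 was the highest library, its groups differed by at most 0.30 on the log2 scale, and its pooled SD was 0.12. Ifi44 stood at 115, 343 and 273 in Stem, 223, 253 and 232 under TGF-β and 1098, 604 and 211 in Both. Both replicates 1 and 2 were the highest of all 9 libraries and replicate 3 lay below TGF-β, and the log2 fold change from TGF-β to Both was 1.43 ± 0.48. Sp100, of the PML nuclear bodies, stood at 545, 782 and 665 in Stem, 391, 396 and 416 under TGF-β and 764, 613 and 356 in Both, with Stem above TGF-β in every library (-0.73 ± 0.22). Lgals3bp, a secreted glycoprotein that binds galectin-3, stood at 2509, 2450.2 and 2677 in TGF-β and 6521, 4749.7 and 2606 in Both. Xaf1, which promotes apoptosis, was below every TGF-β library in Both replicate 3, with 565, 417 and 194 in Both.

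Of the 8 roles, class I had the lowest median pooled SD, 0.18 over 6 genes. Psmb8 and Psmb9 varied more, at 0.46 and 0.28, and Irf1 and Ifi27 of other roles were steadier than any class I gene. B2m, the light chain of all class I molecules, had the highest level per length of any member, 7975 normalized counts per kb of exon. B2m stood at 5629, 7215 and 6319 in Stem, 6753, 6967 and 6606 under TGF-β and 8273, 7895 and 6067 in Both. It kept the order of the Both libraries on a narrow scale, and its groups overlapped (0.13 ± 0.11 from TGF-β to Both). Psmb8, a catalytic subunit of the immunoproteasome, stood at 258, 393 and 342 in Stem, 21.6, 21.3 and 40.03 under TGF-β and 72.9, 50.3 and 34.2 in Both. It was the largest difference between Stem and TGF-β among the members, at -3.56 ± 0.28, without overlap, and in Both it stayed well below Stem. Psmb9, another such subunit, had the same direction (-1.76 ± 0.26), whereas Tap1, the peptide transporter next to it in the class II region, stood higher in TGF-β (0.99 ± 0.11). The heavy chains differed from each other. H2-K1 stood at 2013, 2334 and 2026 in Stem, 3386, 3745 and 3666 under TGF-β and 3944, 3617 and 3133 in Both and was higher outside Stem (0.76 ± 0.082). H2-D1 stood at 2425, 2799 and 2391 in Stem, 2164, 2390.4 and 2252 under TGF-β and 1486, 1424 and 1171 in Both. It was lower in Both than in TGF-β in every library (log2 fold change -0.74 ± 0.086), and within Both it had the order of the other members, while its lowest Stem library was replicate 3. H2-D1 shares 4.64% of its 100-base stretches with H2-Q1, H2-T23 and a gene model, which limits how exactly its reads could be placed. H2-K1, H2-D1 and Tap1 were singled out after their values were seen.

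The genes that could carry an interferon signal were taken from lists of the pathway that hold none of the members: 154 genes in 11 lists, of which 106 were tested. These lists, too, were drawn up with results of these libraries known, so their values are a description. Of the 21 interferon ligands, none passed the filter. Ifnb1, Ifng and 19 genes of the α, ε, κ, ζ and λ types together had 1 to 6 raw counts in a library, at most 6 of them on Ifnz; Ifnb1 had 0 in every library, which at a floor of 3 counts allows up to 3.26 normalized counts. The type I receptor chain Ifnar1 was level across groups, at 2898, 3267 and 3054 in Stem, 3156, 3160.1 and 3035 under TGF-β and 3040.5, 3149.7 and 2952 in Both, with log2 fold changes of 0.021 ± 0.047 and -0.033 ± 0.047. The deviations of Ifnar1 correlated with the mean of the members at r = 0.67 over the 9 libraries.

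Between Stem and TGF-β, 30 of the 106 pathway genes passed the threshold by edgeR (28.3%), near the 25.1% of all tested genes. They were 4 higher (3.77%, against 10.6%) and 26 lower (24.5%, against 14.5%). Among the receptors and kinases, Ifngr1, the ligand-binding chain of the interferon-γ receptor, fell from 3113, 3528 and 3204 to 1509, 1526 and 1516 (-1.11 ± 0.049). Jak2 fell likewise (-1.03 ± 0.044). Of the 7 tested feedback inhibitors 3 fell: Cish (-1.21 ± 0.16), Pias1 (-1.04 ± 0.046) and Socs1 (-1.03 ± 0.15), each an inhibitor of JAK or STAT activity. Of 14 tested sensors and adaptors, Samhd1, which depletes nucleotides, fell (-1.06 ± 0.067). Irf2bp2, a corepressor of IRF2, fell as well (-1.16 ± 0.045), 1 of 2 tested in its list. No other gene of these 4 lists passed in this comparison.

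Of the 11 tested interferon-inducible GTPases, 7 passed the threshold from Stem to TGF-β, all lower (63.6%, against 14.5% of all tested genes). With no minimum fold change 9 were lower (81.8%, against 37.7%) and 1, Irgm1, was higher (9.09%, against 37.3%). Gbp5 fell from 86.9, 156 and 148 to 6.47, 13.2 and 10.7 (-3.66 ± 0.33), as did Gbp9 (-3.44 ± 0.22) and Gbp6 (-2.12 ± 0.32). Gbp2, among the members, had the same direction. Of 42 tested further interferon-stimulated genes 11 fell (26.2%, against 14.5% of all tested genes) and 4 rose (9.52%, near the 10.6% of all tested genes). The largest falls were in Ifi207 (-3.47 ± 0.23), Slfn5 (-2.41 ± 0.10) and Ifi204 (-2.28 ± 0.26), and the largest rises in Apol9b (1.44 ± 0.45), Cd274 (1.31 ± 0.16), which encodes PD-L1, and Oas1c (1.19 ± 0.25). Of 15 tested class I genes, Psmb10, the remaining catalytic subunit of the immunoproteasome, fell from 439.7, 587 and 493 to 236, 228 and 217 (-1.16 ± 0.12). The constitutive subunits that the immunoproteasome replaces, Psmb5, Psmb6 and Psmb7, did not pass the fold-change minimum; their log2 fold changes were 0.58, 0.58 and 0.92, opposite in sign to those of Psmb8, Psmb9 and Psmb10. Shared sequence was measured for the members only, and the Gbp, Apol9, Ifi200, Slfn and class I families hold similar copies, so that counts of these genes may be divided uncertainly. None of 2 tested class II genes passed, and the 4 chemokines did not pass the filter.

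Between TGF-β and Both, 0 of the 106 pathway genes passed the threshold by edgeR, against 0.632% of all tested genes, and 0 by DESeq2. An unadjusted p under 0.05 was found for 36 by DESeq2 and for 41 by edgeR (39 of them higher in Both), where edgeR gave 24.1% of all tested genes. Without the fold-change minimum 10 passed (9.43%), near the 8.92% of all tested genes. All 10 were higher, against 3.54% of all tested genes: Jak2, Socs3, Samhd1, Trim30a, Parp10, Zc3hav1, Slfn2, Pml, Erap1 and H2-Q4. Without Both replicate 3, 12 passed the full threshold, against 0.665% of all tested genes. The 53 tested further interferon-stimulated genes and GTPases had the library order of the members. The order replicate 1, 2, 3 in Both held in 44 of 53 (83.0%), against 14.0% of all tested genes. Stem replicate 1 was lowest in 47 (88.7%, against 37.7%). Both replicate 1 lay above every TGF-β library in 50 of them (94.3%, against 32.9%). Both replicate 3 did so in 13 (24.5%), fewer than the 33.6% of all tested genes. Irgm1, an immunity-related GTPase, stood at 5929.7, 4895 and 3042 in Both and at 3532, 3408 and 3615 in TGF-β. Apol9a, of the apolipoprotein L family, stood at 296, 181 and 78.1 in Both and at 73.4, 74.0 and 95.7 in TGF-β. An ISRE core was found in the promoter windows of 27 of the 44 of these genes that were listed (61.4%). Among tested genes with a window it was found in 3.59%. These genes, too, were listed as interferon-stimulated, so the higher share follows from the list.

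Between Stem and Both, 26 pathway genes passed the threshold by edgeR (24.5%), near the 22.8% of all tested genes. They were 8 higher (7.55%, against 9.55%) and 18 lower (17.0%, against 13.2%). Those higher were Apol9a (1.83 ± 0.40), Apol9b (2.27 ± 0.42), Cd274 (1.21 ± 0.16), Oas1c (1.54 ± 0.24), Isg20, Irgm1 (1.18 ± 0.18), Irf5 (1.09 ± 0.23), a factor downstream of Toll-like receptors, and Nlrc5 (1.27 ± 0.34), the transactivator of class I genes. Those lower included Gbp5 (-3.33 ± 0.31), Gbp9 (-2.80 ± 0.20), Gbp6 (-1.87 ± 0.31), Ifi207 (-2.62 ± 0.20), Slfn5 (-2.26 ± 0.10), Ifit1bl1 (-1.82 ± 0.25), Ifngr1 (-1.09 ± 0.048) and Psmb10 (-1.03 ± 0.11).

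Among tested members with a listed promoter, the 13 with an ISRE core had a median pooled SD of 0.57 (range 0.18 to 0.83), and the 21 without one had 0.29 (range 0.077 to 0.84). The members were chosen partly by this spread, so these medians are a description, and a link to the core was not tested. Tested members without a listed window are in neither set. Among them were Oas2, Rtp4 and Zbp1 at 1.14, 0.89 and 0.83, but also Ifi27 at 0.12. The ranges overlapped: Ifi44 and Oasl1, which held no core in the window, were among the widest, and B2m, which held one, was among the narrowest. Irf1 and Ifit2, which held no core, held a GAS match, as did Psmb8 and Ifi35.

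Markers of other cell types were read beside the members. Of the leukocyte markers, Adgre1, Itgam, Cd3e and Siglech had 0 counts in every library and Ptprc at most 3. Csf1r and Cd68, both of macrophages, were called higher than in Stem by edgeR, Csf1r by 2.65-fold in TGF-β and 4.83-fold in Both, and Cd68 by 3.63-fold and 3.93-fold. The summed level was 140 to 152 normalized counts in Stem, 178 to 219 in TGF-β and 291 to 308 in Both, of which Csf1r and Lyz2 made most. Within Both it was 291, 308 and 299 in replicates 1, 2 and 3, where the members summed to 80684, 65633 and 43286. The part of such cells in the differences between groups and between libraries was not tested. The 4 endothelial markers summed to between 48.3 and 67.4 in all libraries, but they moved apart. Kdr was called higher than in Stem in both other groups, at 0, 0 and 2.16 in Stem, 22.7, 25.4 and 30.3 under TGF-β and 30.6, 31.6 and 21.1 in Both. Tek was called lower in both, at 0.403-fold and 0.385-fold of Stem. Of the markers of the cells themselves, Ly6a, which encodes Sca1 and is itself interferon-inducible, stood at 6557, 8441 and 7908 in Stem, 855, 1094 and 875 under TGF-β and 762, 799.5 and 639.8 in Both, and its Stem replicate 1 was the lowest of that group. Ly6a, Cd34 and Pdgfra were called lower than in Stem in both other groups. Gli1, with at most 21 raw counts, was called higher, at 9.78-fold in TGF-β and 11.2-fold in Both. Klf4 was not called, at 1.65-fold and 1.55-fold. Of the smooth muscle markers, Acta2 and Tagln were called higher in TGF-β (2.32-fold and 2.67-fold) and Myh11 lower (0.334-fold). Cnn1 and Smtn were not called.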

How the data were processed

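Whole-gene read counts were deposited by the authors in 1 table for 9 libraries. The study's methods name trimming of 12 bases with Flexbar and alignment with STAR to GRCm39, whereas the submitters' processing notes list HISAT2 2.2.1, SAMtools 1.13 and HTSeq 0.11.3. Which made these counts could not be settled, and reads shared by similar genes may be split or dropped. Counts were filtered with filterByExpr, scaled by TMM and tested with edgeR 4.0.16 (R 4.3.3) in 1 quasi-likelihood fit of all 9 libraries, with Benjamini-Hochberg adjustment over 14879 genes. A call needed an adjusted p of 0.05 and a log2 fold change beyond 1. SE is the log2 fold change over the square root of F. The steps were tested on simulated data. DESeq2 1.42.0, other scalings and filters, and each library left out were alternatives. Within each role, all 9 values are given for the members with the highest mean count, the largest change between Stem and TGF-β, the largest between TGF-β and Both, and the widest spread; of each pathway list, the called genes with the 3 largest rises and falls are named. H2-D1, H2-K1 and Tap1 were added after their values were seen. The members and lists were chosen with earlier results of these data known. Replicate p-values measure the spread between these libraries, which may be technical. Values of some listed genes are not reported here.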

Additional observations from a re-analysis of the deposited data

How the results depend on the processing

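Between TGF-β and Both, the number of called members moved from 1 to 10 without a filter on low counts. It moved to 4 with only the 6 libraries compared and to 3 without a fold-change minimum. The shares of all tested genes were 0.632%, 0.622%, 0.802% and 8.92%, in this order. Leaving out 1 library gave 0 to 15 members, against 0.447% to 0.831% of all tested genes. The count was 15 without Both replicate 3, 3 and 4 without Stem replicates 1 and 2, and 0 without any other library. For the pathway genes the count of 0 moved to 2 without a filter, 1 with the 6 libraries and 10 without a fold-change minimum, and leaving out 1 library gave 0 to 12. Without a fold-change minimum, 18 of 43 members and 85 of 106 pathway genes were called between Stem and TGF-β, against 75.0% of all tested genes. Between Stem and Both, 22 members and 78 pathway genes were called, against 73.3%. Scaling by total counts moved the median log2 fold change of the members between Stem and TGF-β to -0.25, where that of all tested genes was -0.12. Leaving out 1 library gave 8 to 12 members between Stem and TGF-β, against 25.2% to 26.0% of all tested genes. Between Stem and Both it gave 12 to 19, against 22.6% to 23.8%. The causes were not tested.

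The labels letter the libraries A, B and C in each group, and whether these pair the libraries was not settled. Deviations of same-numbered libraries correlated at -0.060 to 0.177 over all tested genes. All 3 pairs of replicate 2 were over 0.1 (0.148, 0.117 and 0.177), but those of the other numbers were not. Over the members, Stem and Both correlated at -0.69 for replicate 1 and -0.75 for replicate 3. With the number as a replicate block, edgeR called 10, 1 and 14 members and 30, 2 and 26 pathway genes in the 3 comparisons. Of all tested genes, the block called 0.807% between TGF-β and Both, against 0.632% without it. It called 25.1% between Stem and TGF-β and 22.8% between Stem and Both. No called value changed its sign under the alternatives run, but small uncalled ones did. From Stem to Both, Ifit3, Oasl2 and Rtp4 turned from 0.13, 0.30 and 0.15 to -0.46, -0.23 and -0.61 without Both replicate 1, and from Stem to TGF-β, Ifi44 turned from -0.041 to 0.30 without Stem replicate 2. With 3 libraries a group, 26 members had an unadjusted p under 0.05 by edgeR between TGF-β and Both, and 1 member passed the threshold. Over all tested genes 3583 (24.1%) had one and 94 passed. The median pooled SD was 0.46 over all 43 tested members.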

Other observations

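Of the 40 genes outside the members whose deviations between libraries were most like those of the members (r from 0.945 to 0.995 over 9 libraries, a description over libraries that share their scaling), 22 were in the pathway lists and 18 in none. Ly6e, an interferon-inducible surface protein related to Sca1, stood at 4137, 4951 and 4984 in Stem, 1481, 1535 and 1436 under TGF-β and 2404, 2095 and 1674 in Both (normalized counts). Mndal, of the interferon-inducible p200 family, stood at 184, 141 and 80.7 in Both. Trim30d stood at 776, 621 and 391 there. Kdelr2, a receptor that returns proteins to the endoplasmic reticulum, varied little, at 10251, 10157 and 9656 in Both, but in the same order. These genes were picked for this likeness, and over all tested genes 383 of 14879 (2.57%) had an r above 0.8. Of the 193 tested genes more than 2-fold higher in Both replicate 1 than in replicate 3, 24 were members, 21 were pathway genes and 148 were in no list.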
